A study of Homo sapiens with 5 samples.

Results

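A library of A549 cells transfected for 9 h with 50 nM of an oligo named 23N Randomer was set against a library of the same cells transfected for 9 h with 50 nM of a control oligo, with 1 library on each side. Exon and intron counts were compared for every gene with a mean of at least 50 counts over these 2 libraries, which held 6874 of 23340 genes by exons and 5937 of 22009 by introns, and 4218 genes by both. A549 is a human lung carcinoma epithelial line, both oligos were delivered with Lipofectamine 2000, and total RNA was depleted of ribosomal RNA before sequencing. The series has 5 libraries in all, and the other 3 were mock transfected cells (Lipofectamine for 16 h), control oligo for 16 h and randomer for 16 h. No group has a replicate, all libraries come from 1 cell line, and the sources used here give neither the chemistry nor the sequence of either oligo. Every difference below is therefore a difference between 2 libraries, without a test, and nothing separates the oligo from any other difference between them.

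The title of the series names double-stranded RNA from inverted repeats and the interferon system. Double-stranded RNA is bound in the cytoplasm by oligoadenylate synthetases (OAS proteins), which answer it by making oligoadenylates. The helicases RIG-I and MDA5 also bind it and signal through MAVS to NF-kB and to the interferon genes. The kinase PKR answers double-stranded RNA by lowering translation and starting the integrated stress response. Introns are copied with every transcript, are normally removed within minutes in the nucleus, and hold many inverted repeats, so that intron reads in a library made from total RNA report unspliced or undegraded nuclear RNA.

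Exon totals were 2629053 in the control library and 1792192 in the randomer library, and intron totals 740408 and 1768491. Both tables were scaled by the size of the exon library with TMM factors, and the control library was 1.39 times the size of the randomer library after scaling. Keratin genes KRT8 and KRT18, expected of epithelial cells, were read in all 5 libraries, with 922 to 2480 and 1213 to 5415 exon counts. EPCAM, another epithelial gene, was at 0 exon counts in 4 libraries and at 4 with randomer at 16 h. As a measure of the spread between libraries given the same oligo, control oligo at 16 h was compared with control oligo at 9 h. There the exon ratio was at least 2-fold higher for 4.49% and lower for 4.23% of 7084 genes. All intervals in brackets are exact 95% intervals of the ratio of 2 counts and cover counting error only. Among genes with a mean of 50 to 100 exon counts that error had an SD of 0.26 on the log2 scale, while the scaled median absolute deviation of the ratios was 0.74 between the control libraries and 0.87 in the 9 h pair, so the intervals understate the spread between libraries. Among genes with a mean of 1000 or more the values were 0.05, 0.24 and 0.37.

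Intron reads were higher with randomer across most of the genome. The share of assigned counts that fell in introns was 49.7% with randomer and 22.0% with control oligo, a difference of 27.7 percentage points. Of 5937 genes, 4204 (70.8%) had at least 2-fold higher and 66 (1.11%) at least 2-fold lower intron counts, with a median log2 ratio of 1.66 and quartiles of 0.86 and 2.54. Between control oligo at 16 h and at 9 h, 7.72% of 4496 genes were past 2-fold upward and 6.21% downward, with a median of 0.08. A gene read in the randomer library alone can pass a minimum on the mean of the pair: 1760 of the 5937 had fewer than 50 control counts. Of 4379 genes with at least 50 intron counts in the control library, 57.1% had 2-fold higher and 3.2% 2-fold lower introns, with a median of 1.19. Scaled by the intron table's own size, which centres the intron ratios, 1633 genes were higher and 868 lower. A shift of the exon ratios as a whole could not be seen, since the TMM scaling centres them. The intron ratios were put on that same scale, so their shift is relative to the exon counts. By exons 646 of 6874 genes (9.4%) had ratios of 2-fold or more upward and 534 (7.77%) downward, with a median of -0.06 and quartiles of -0.50 and 0.43. The last gene inside the threshold on the higher side was DNAAF2 by exons (log2 ratio 1.0002), and ASH1L (0.9988) was just outside it.

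**Figure D1:**
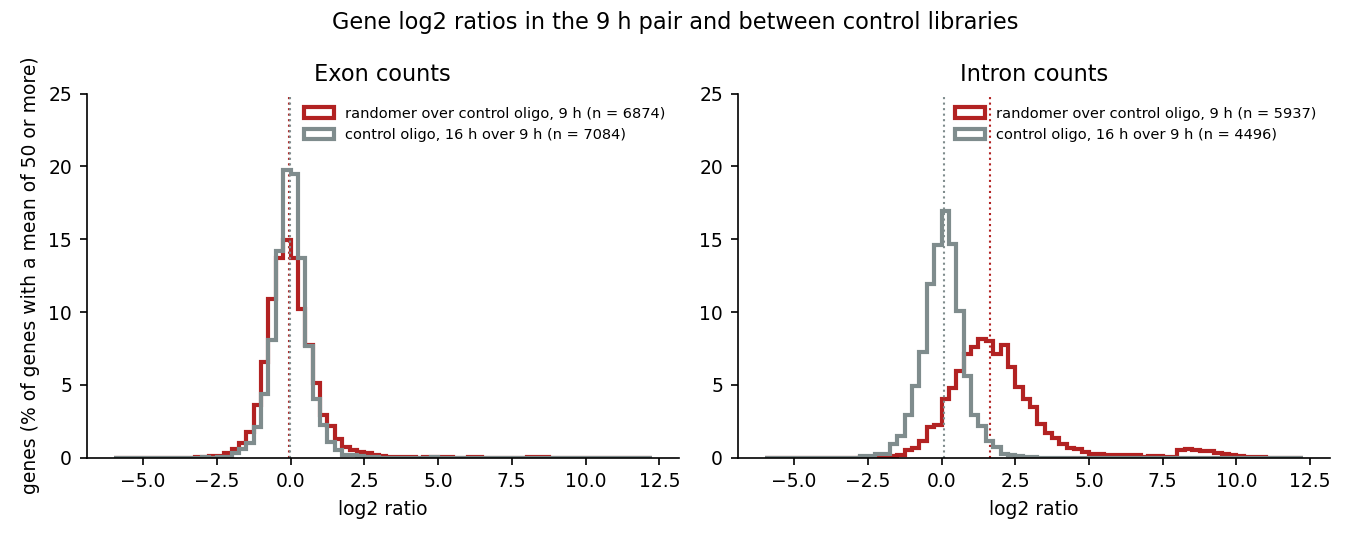
Share of genes (percent, vertical) by log2 ratio (horizontal) for exon counts (left) and intron counts (right), in bins of 0.25, for randomer over control oligo at 9 h and for control oligo at 16 h over 9 h. Dotted lines mark the medians: by exons both lie near 0 (-0.06 and -0.01). By introns the 9 h pair lies at 1.66 and the control pair at 0.08. The small rise above 8 includes genes without an intron count in the control library, whose place depends on the 0.5 added to each count.

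The intron difference was larger with a larger total length of a gene's introns. Over all genes in the table, summed intron counts were 1.96-fold higher with randomer for genes with less than 5 kb of intron, 2.86-fold higher for 20 to 50 kb and 4.93-fold higher for 200 kb and more. Over genes that passed the minimum, the median log2 ratio went from 0.90 (265 genes) through 1.51 (1601 genes) to 2.20 (721 genes) in the same 3 classes, and the share at least 2-fold higher from 47.9% to 67.4% and 85.6%. Over genes with at least 50 control intron counts the medians were lower, at 0.31, 1.0 and 1.92. The order held among genes with 51 to 200 exon counts in the control library, from a median of 1.04 to 2.06, and among genes that overlap no other annotated gene, from 0.92 to 2.10. In the comparison of the 2 control libraries the medians stayed between -0.03 and 0.14 over the same classes. The shift was present on every chromosome measured: over 23 chromosomes the median ran from 1.50 on chromosome 21 to 1.78 on chromosome 6. Genes without an overlapping gene had a median of 1.53 and those with at least 1 had 1.71.

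**Figure D2:**
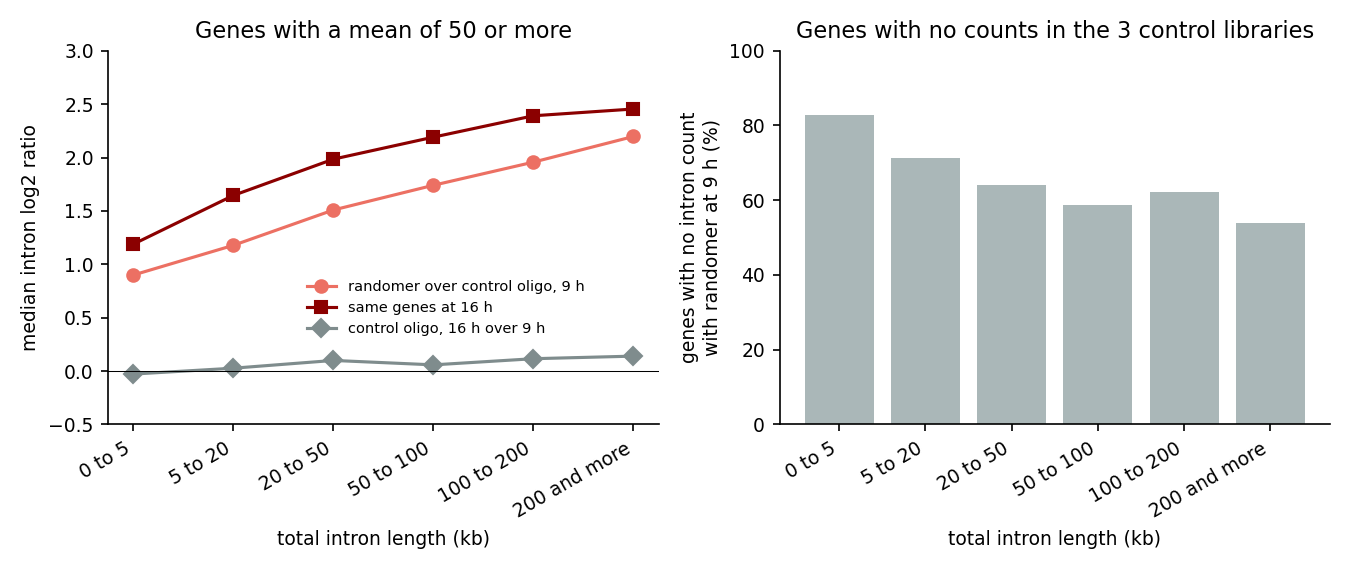
Left, median intron log2 ratio (vertical) by total intron length in kb (horizontal) for genes past the count minimum, in the 9 h pair, in the 16 h pair for the same genes and between the control libraries; the 9 h medians go from 0.90 to 2.20 and the control medians stay between -0.03 and 0.14. Right, bars give the percent of genes without any intron count with randomer at 9 h, among protein-coding genes at 0 in the 3 control libraries, from 82.9% in the shortest class to 54.0% in the longest.

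Genes that the control cells did not transcribe at a readable level were used to see how far the intron reads spread. Of the protein-coding genes in both tables, 5276 had no exon or intron count with control oligo at 9 h, control oligo at 16 h or mock. With randomer at 9 h, 3675 of them (69.7%) still had no intron count. Counts in the remaining genes were concentrated: 77 genes with at least 100 intron counts held 35.8% of the 44057 counts of the whole set, and 55 of the 77 also had at least 100 with randomer at 16 h, where the lowest had 37. Long introns were not always read. Of 93 genes in the set with at least 500 kb of intron, 47 had no count, the median was 0 and the highest, the phospholipid transporter gene ATP8A2, had 195. TNNT2, the cardiac troponin T gene, with only 11.5 kb of intron, had 431 at 9 h and 455 at 16 h. Introns of leukocyte, muscle and neuron markers were uneven in the same way. Those of 6 leukocyte markers summed to 0 counts with control oligo and 727 with randomer, of which the integrin gene ITGAM gave 568 and the transcription factor gene SPI1 gave 117, while CD3E was at 0. Those of 6 muscle markers went from 4 to 575, with TNNT2 and the muscle glycogen phosphorylase gene PYGM (4 and 127) and with MYH7 and DES at 0. Those of 6 neuron markers went from 18 to 1580, of which NRXN2 gave 1374 and RBFOX3 gave 160, with STMN2 and SYP at 0. The 4 hepatocyte markers ALB, APOA1, TTR and SERPINA1 had no intron count in either library. Fibroblast markers, 4 in number, were read with control oligo and went the other way, from 633 to 265 intron counts. Of these COL3A1 had 439 and 140 (-1.17) and COL1A1 had 194 and 125 (-0.15). In bulk RNA, fewer cells of a type and less RNA per cell cannot be told apart, and the part of other cell types in these values was not tested.

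The 12 genes with the highest intron ratios all had 0 intron counts in the control library at 9 h, and all 12 were also at least 2-fold higher at 16 h. They are ranked with 0.5 added to each count, and the folds below are lower bounds set against 3 counts. NRXN2, which encodes the presynaptic adhesion protein neurexin 2, led with 1374 counts (at least 638-fold). KCNN3, a calcium-activated potassium channel gene, had 884 and 1436 counts in the randomer libraries of 9 h and 16 h, against 0 with control oligo at 9 h and 3 in each of control oligo at 16 h and mock (at least 411-fold). MSH4, a meiotic recombination gene, had 635 and 510 counts with randomer and 0, 6 and 0 in the control 9 h, control 16 h and mock libraries. PEBP4, PDE2A, ITGAM, FGF18, IL34, ITGA9, KCNJ12 and KCNQ1 were among the others, with 470 to 643 counts and at least 218-fold to 299-fold higher. Potassium channel genes included KCNN3, KCNJ12 and KCNQ1. Of 45 counted, 13 had a mean of 50 or more and 9 of these had fewer than 50 control counts, so they passed the minimum through the randomer library. Of the 4 with at least 50 control counts 2 were at least 2-fold higher, beside 57.1% of all such genes. KCNMA1, the large-conductance channel, had 4 counts with control oligo and 468 with randomer (log2 7.18). KCNC4 (88 and 48) and KCNQ5 (151 and 129) were within 2-fold. Of 26 integrin genes 13 passed the minimum, 7 of them with fewer than 50 control counts. The 6 others were all at least 2-fold higher, with a median of 1.62 beside 1.19 for all genes with that many control counts. They included ITGB1 (627 and 1035), the common beta chain of adhesion receptors, whose exon counts were 3775 with control oligo and 1732 with randomer (exon log2 ratio -0.65).

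The 66 genes with at least 2-fold lower introns differed between the times. Of the 12 lowest, 3 were also at least 2-fold lower at 16 h and 3 were at least 2-fold higher there. For 7 of the 12 the control library at 16 h was itself at least 2-fold below that at 9 h. The gene of the protein-folding enzyme PDIA3 had 316 intron counts with control oligo and 62 with randomer at 9 h (log2 -1.86, interval -2.29 to -1.47), and 343 and 51 at 16 h (-1.84). PLD3 (123 and 21) and ARRB2, the gene of beta-arrestin 2 (84 and 17), were lower at both times as well. AKR1C1, an aldo-keto reductase gene, was lowest with 154 and 10 counts (-3.40, interval -4.56 to -2.55) but had 69 and 36 at 16 h (-0.03). AKR1C1 has near-identical neighbours, AKR1C2 and AKR1C3, among which the counting could split reads. VWDE (94 and 10), RPL41 (117 and 23) and C1orf43 (85 and 16) were lower at 9 h and higher at 16 h.

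Exon and intron ratios could be set side by side for 4218 genes. For 2395 of them (56.8%) introns were at least 2-fold higher while exons stayed within 2-fold. Both were at least 2-fold higher for 333 genes, introns were higher and exons lower for 128, both were lower for 16, and 1167 stayed within 2-fold in both. For 1974 genes (46.8%) the exon ratio was below 0 and the intron ratio above 0. The intron-to-exon ratio had a median log2 difference of 1.52 and was at least 2-fold higher for 2820 genes (66.9%) and lower for 42 (0.996%), against 10.6% and 7.72% of 3613 genes between the control libraries. The gene with the highest ratio that had an intron count in the control library was PIK3CD, which encodes a lipid kinase subunit: its introns had 1 count with control oligo and 359 with randomer (interval 6.48 to 14.3 on the log2 scale), while its exons had 72 and 98. LTBP1, a regulator of TGF-beta, had 11 and 732 intron counts and 86 and 54 exon counts. DRAM1, an autophagy gene, had 1 and 210 intron counts with 82 and 76 exon counts. FAM105A, NES and BIRC3, with 0 control intron counts, had 189, 116 and 120 with randomer. At the other end stood NEIL3, a DNA glycosylase gene, with 318 and 71 intron counts (log2 -1.68) and 279 and 297 exon counts (0.57), and EXO1, an exonuclease of DNA repair, with 134 and 35 intron counts (-1.44) and 188 and 161 exon counts (0.26). METTL12 was the lowest: its exon counts went from 44 to 234 while its introns, at 9278 and 6314 counts, were level (-0.08). Those intron counts were 95.8 to 99.2% of the exon counts of the snoRNA SNORA57 in each of the 5 libraries, so this value is not read as a change in METTL12.

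**Figure D3:**
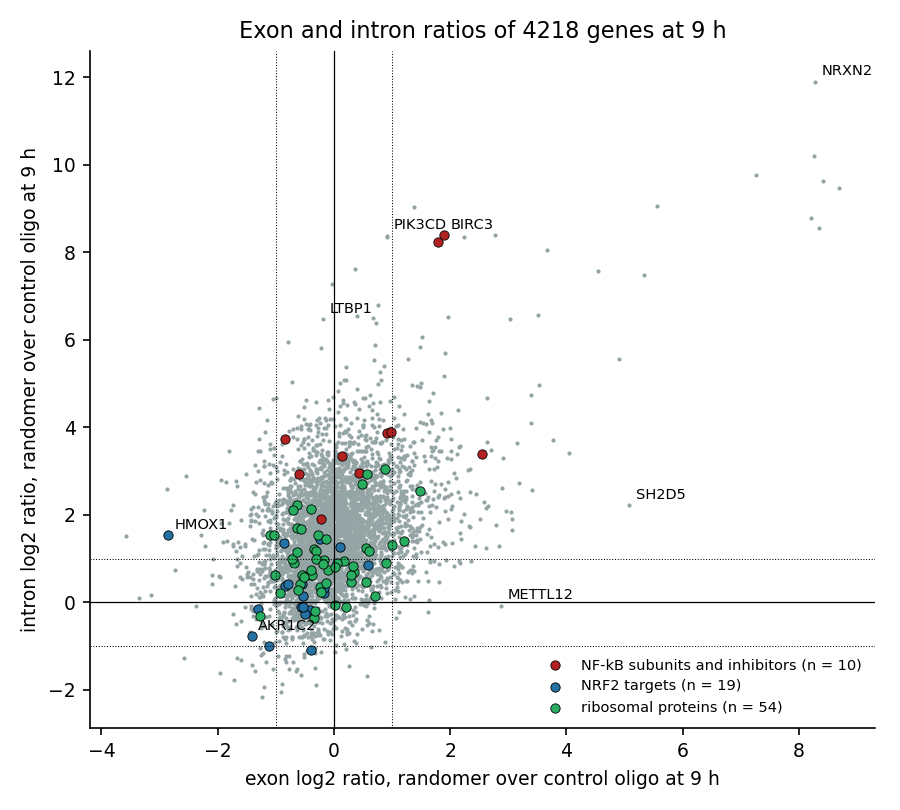
Intron log2 ratio (vertical) against exon log2 ratio (horizontal) at 9 h for the 4218 genes with a mean of 50 or more counts in both tables, each point 1 gene; dotted lines mark 2-fold. Most points lie above 0 on the intron axis and about 0 on the exon axis. Genes of NF-kB subunits and inhibitors (red) lie high, and NRF2 targets (blue) lie low on both axes. Points above 8 include genes with no intron count in the control library, such as BIRC3, and PIK3CD, which had 1.

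By exons the most abundant RNAs were lower and the difference followed the level. Genes with 51 to 200 exon counts in the control library had a median log2 ratio of 0.07, those with 201 to 1000 had -0.23, those with 1001 to 5000 had -0.36, and the 24 with more than 5000 had -0.62, of which 22 were below 0. In the 16 h pair, whose libraries did not define the classes, the medians of the same genes were 0.04, -0.25, -0.48 and -0.79. The gamma actin gene ACTG1 had 94601 counts with control oligo and 45053 with randomer (-0.59), the chaperone gene HSP90AA1 23933 and 11173 (-0.62), the nucleolin gene NCL 12430 and 5261 (-0.76), and ACTB 7572 and 3357 (-0.69). GAPDH, with 3661 and 2811, was level (0.10). The noncoding nuclear RNAs MALAT1 (13664 and 8578, -0.19) and NEAT1 (1050 and 765, 0.02) were close to level too, and RN45S, the ribosomal RNA precursor, took 6.78% of exon counts with control oligo and 7.84% with randomer. Since TMM scaling centres the bulk of exon genes, a uniform gain or loss of exon RNA per cell could not be seen here.

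Several of the exon genes with the largest ratios were small noncoding RNAs. Small nucleolar RNAs guide chemical modification of ribosomal and spliceosomal RNA, the H/ACA class guiding pseudouridylation and the C/D class 2′-O-methylation, and most are cut out of introns of host genes. As a class, snoRNA and scaRNA genes took 1.51% of exon counts with control oligo and 2.68% with randomer. The RNAs below are among those with the largest ratios, and are shown because the letters give their class. Sequences and positions are those of GENCODE v29 on GRCh38, a later build than the hg19 of the counts. Capitals mark the ACA box of H/ACA RNAs, the C box (TGATGA) and D box (CTGA) of C/D RNAs where those letters occur near the ends, and in RNU11 the Sm-site letters ATTTTTTGG, to which the Sm protein ring binds.
RNU11, chr1:28648600-28648733, plus strand: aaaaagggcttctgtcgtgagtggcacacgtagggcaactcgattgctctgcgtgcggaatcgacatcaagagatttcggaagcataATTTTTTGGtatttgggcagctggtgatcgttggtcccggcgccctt
SNORA62, chr3:39411054-39411206, plus strand: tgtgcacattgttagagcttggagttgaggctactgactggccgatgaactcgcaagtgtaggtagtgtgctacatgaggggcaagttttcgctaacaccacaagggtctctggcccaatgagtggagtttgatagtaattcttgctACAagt
SNORA75, chr2:231455800-231455936, minus strand: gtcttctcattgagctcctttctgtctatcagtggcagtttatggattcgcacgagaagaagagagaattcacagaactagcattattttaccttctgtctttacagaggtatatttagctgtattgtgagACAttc
SNORD60, chr16:2155023-2155105, minus strand: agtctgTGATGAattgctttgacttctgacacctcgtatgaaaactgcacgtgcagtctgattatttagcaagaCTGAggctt
SNORD12C, chr20:49278940-49279028, plus strand: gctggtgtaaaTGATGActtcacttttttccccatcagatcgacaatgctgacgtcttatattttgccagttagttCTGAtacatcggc
SNORD22, chr11:62852910-62853035, minus strand: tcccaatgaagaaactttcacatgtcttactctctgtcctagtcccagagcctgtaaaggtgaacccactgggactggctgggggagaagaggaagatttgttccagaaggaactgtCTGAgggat

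Among 278 annotated SNORD sequences 69.4% hold TGATGA in the first 25 bases and 92.4% hold CTGA in the last 15, and 85.0% of 147 SNORA sequences hold ACA near the end, on the sequenced strand only, so the boxes mark the class and not the ratio. RNU11, the U11 RNA of the minor spliceosome, had 0 exon counts with control oligo at 9 h and 484 with randomer (at least 225-fold), and 7, 7 and 659 in mock, control oligo at 16 h and randomer at 16 h. All 3 control libraries lay far below both randomer libraries. RNU12, the U12 RNA of the same spliceosome, had 183 and 2054 (log2 3.96, interval 3.75 to 4.19), with 182, 278 and 2827 in the other libraries. SNORA62 had 13 and 1202 (6.96, interval 6.23 to 7.92), with 17, 23 and 3202 in the others. SNORD60 had 28 and 1658 (6.34), with 21, 48 and 802, and SNORD22 had 15 and 722 (6.02), with 15, 15 and 607. SNORA75 had 0 and 156 at 9 h and SNORD12C 0 and 101. In each of these RNAs the mock and control libraries stood together and the randomer libraries apart.

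Beside 9.4% of all exon genes, small RNAs passed 2-fold upward in larger shares. Of 43 C/D RNAs with a mean of 50 or more, 24 were at least 2-fold higher and none at least 2-fold lower, with a median log2 ratio of 1.34. Of 31 H/ACA and scaRNAs 12 were higher and none lower, with a median of 0.54. Fewer than 50 control counts were held by 14 of the 43 and 7 of the 31. With at least 50 control counts, 10 of 29 C/D RNAs were higher and 0 lower (median 0.72). By that minimum 5 of 25 H/ACA and scaRNAs were higher and 1 lower (median 0.34), beside 399 higher and 752 lower of 7082 genes. The abundant SNORA57 (9353 and 6369 counts, -0.08) and the RNA component of RNase P, RPPH1 (30035 and 16578, -0.38), were level or lower. RMRP, the RNA of RNase MRP, was higher but within 2-fold (3407 and 3530, 0.53, interval 0.46 to 0.60). The host of a small RNA did not always follow it. SNORA75 lies within NCL, whose exon ratio was -0.76 and intron ratio 0.16, and SNORA62 within RPSA, with an exon ratio of -0.51 and intron ratio of 0.59. SNORD22 lies within SNHG1, whose exons had 175 and 401 counts (1.67) and introns 625 and 4575 (3.35). Noncoding hosts were higher as a group: 7 of 10 were at least 2-fold higher by exons and none lower, with a median of 1.40, led by SNHG7 (95 and 491, 2.84) and SNHG3 (55 and 221, 2.48). The host GAS5 (461 and 376, 0.18) was level by exons with higher introns (1647 and 4633, 1.97). A small RNA inside an intron can add reads to the intron count of its host. Unspliced host RNA can likewise add reads to the exon count of the small RNA. The deposited counts do not tell these apart.

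Other genes among the 15 highest by exons were the uncharacterised LOC100507351 (0 and 151 counts) and LOC646329 (0 and 132), and protein-coding genes. EPPK1, the epithelial cytolinker epiplakin, had 0 counts with control oligo and 381 with randomer at 9 h (at least 177-fold), and 1, 1 and 412 in mock, control oligo at 16 h and randomer at 16 h. CDC42BPG, CPT1C, IFFO1, NRXN2, DNAH10 and SLC5A5 had 0 with control oligo and 105 to 148 with randomer, and MMP25, a membrane-bound metalloproteinase gene, had 1 and 165 (interval 5.35 to 13.2 on the log2 scale). All 15 were at least 2-fold higher at 16 h as well.

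Genes of the immediate early response were higher by exons. These genes need no new protein synthesis to be transcribed after growth factors or stress, and several encode subunits of the transcription factor AP-1. Of 17 with a mean of 50 or more, 12 were at least 2-fold higher and none lower, beside 9.4% and 7.77% of all exon genes. Their median log2 ratio was 1.50 beside -0.06 for all genes. Of the 14 with at least 50 control counts, 9 were higher and none lower, with a median of 1.22. EGR1, a zinc-finger transcription factor, had 11 counts with control oligo and 317 with randomer at 9 h (5.27, interval 4.47 to 6.34), and 11, 18 and 741 in mock, control oligo at 16 h and randomer at 16 h. JUN had 209 and 932 (2.63, interval 2.42 to 2.86), with 119, 119 and 1206 in the others, and its partner FOS had 24 and 86 (2.30, interval 1.65 to 3.04), with 10, 14 and 275. For all 3 genes both randomer libraries lay above every control library. JUNB (177 and 504), IER2 (128 and 372), CYR61 (194 and 627) and CTGF (25 and 98) were between 1.99 and 2.43 on the log2 scale, and MYC had 267 and 392 (1.03). NR4A1, BHLHE40, ZFP36, IER5 and FOSL2 were within 2-fold. Introns of the list were higher too, 9 of 9, with a median of 2.96 beside 70.8% and 1.66 for all genes, 6 of the 9 having fewer than 50 control counts, and ATF3 had 10 and 367 intron counts (5.61). The phosphatases and inhibitors that limit MAP kinase signalling showed smaller exon ratios: 2 of 9 were at least 2-fold higher, DUSP5 (46 and 99, 1.58) and, at the threshold, DUSP1 (793 and 1141), with a median of 0.51, while all 9 introns that passed the minimum, 4 of them with fewer than 50 control counts, were at least 2-fold higher with a median of 2.35.

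Among genes of the NF-kB list that passed the minimum, the inhibitor NFKBIA had the highest exon ratio. NF-kB is held in the cytoplasm by inhibitor proteins whose own genes it switches on. The 11 subunit and inhibitor genes had an exon median of 0.91. Where 7.77% of all exon genes were lower and 9.4% higher, none of the 11 was at least 2-fold lower and 4 were at least 2-fold higher. They were NFKBIA, the gene of the main inhibitor, with 80 and 424 counts (2.88, interval 2.54 to 3.25), TNFAIP3, a ubiquitin-editing inhibitor, with 39 and 165 (2.55), BIRC3, a ubiquitin ligase of the pathway, with 67 and 180 (1.90), and NFKBIE with 52 and 130 (1.79). NFKBIA had 47 counts in mock, 54 with control oligo at 16 h and 815 with randomer at 16 h, so that both randomer libraries lay above all 3 others. TNIP2, an inhibitor of NF-kB signalling that is outside this list and so not counted among the 11, did not go with them. It had 191 and 16 exon counts at 9 h (-3.06) and 51 and 115 at 16 h (2.06). By introns 12 of 12 genes were at least 2-fold higher, with a median of 3.74, beside 70.8% and 1.66 for all genes. Of these 12, 11 had fewer than 50 control counts, NFKBIE and BIRC3 had 0, and NFKB1 was the one with more. NFKB1, which encodes the p50 subunit, had 80 and 843 intron counts (3.87), RELB 43 and 414 (3.73), and BIRC3 0 and 120 (at least 55.7-fold). By exons NFKB2 had 300 and 427 (0.99).

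The promoters of EGR1, NFKBIA and TNFAIP3 are shown because they carry the letters bound by the factors of these pathways. Each runs from 250 bases before to 50 after the start of the gene, from RefSeq on GRCh38.p14. Capitals mark the CArG box, bound by serum response factor, in EGR1, and the NF-kB site in the other genes.
EGR1, chr5:138465229-138465528, plus strand: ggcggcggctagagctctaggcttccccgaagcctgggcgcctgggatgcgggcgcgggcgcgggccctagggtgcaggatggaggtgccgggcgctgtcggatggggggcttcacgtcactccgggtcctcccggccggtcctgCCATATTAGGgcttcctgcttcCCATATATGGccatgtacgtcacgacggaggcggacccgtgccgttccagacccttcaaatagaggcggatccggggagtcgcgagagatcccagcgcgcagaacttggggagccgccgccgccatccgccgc
NFKBIA, chr14:35404700-35404999, minus strand: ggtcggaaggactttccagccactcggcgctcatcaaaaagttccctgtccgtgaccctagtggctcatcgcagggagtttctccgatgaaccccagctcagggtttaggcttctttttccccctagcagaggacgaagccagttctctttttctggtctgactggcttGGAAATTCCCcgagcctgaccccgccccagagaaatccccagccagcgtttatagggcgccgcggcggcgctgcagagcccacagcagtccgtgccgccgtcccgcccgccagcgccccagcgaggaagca
TNFAIP3, chr6:137867009-137867308, plus strand: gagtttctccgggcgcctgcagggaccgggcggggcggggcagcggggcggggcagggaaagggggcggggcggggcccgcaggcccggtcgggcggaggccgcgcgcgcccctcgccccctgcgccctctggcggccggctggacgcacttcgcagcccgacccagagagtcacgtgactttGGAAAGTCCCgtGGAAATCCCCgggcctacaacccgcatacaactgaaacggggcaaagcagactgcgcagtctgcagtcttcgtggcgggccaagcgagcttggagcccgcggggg

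The EGR1 window holds 2 CArG boxes, at positions -105 and -83 from the start, the NFKBIA window 1 NF-kB site at -81 and the TNFAIP3 window 2, at -67 and -55, both strands being searched. A CArG box is found in 1.29% of all 27305 promoter windows and an NF-kB site in 5.72%. Of the 3 higher NF-kB pathway genes with a window in the table all 3 hold an NF-kB site, and of 8 higher immediate early genes 1 holds a CArG box. These are matches of letters and do not show binding.

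Few inflammatory mediators were read. The 4 that passed the minimum were all at least 2-fold higher by exons, beside 9.4% of all exon genes. IL8 passed it through the randomer library alone. Of the 4 mediators with at least 50 control counts, 3 were at least 2-fold higher and 1 at least 2-fold lower. The lower 1 had a mean below 50 over the pair, so the minimum left it out. IL8, a neutrophil chemokine, had 0 counts with control oligo and 118 with randomer at 9 h (at least 54.8-fold), and 3, 21 and 199 in mock, control oligo at 16 h and randomer at 16 h. IL11 had 119 and 317 (1.89), LIF 376 and 973 (1.85) and IL32 56 and 109 (1.43). LIF had 588 counts in mock and 441 and 468 at 16 h, which scaled to library size is 316 CPM in mock and 330 with randomer at 16 h. IL6, TNF, IL1A, IL1B and CSF2 had no exon count in any library.

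The interferon genes named here had no exon reads, and few interferon-stimulated genes had enough to describe. IFNB1, IL28A, IL28B and IL29 and the chemokine genes CXCL9, CXCL10, CXCL11 and CCL5 had 0 exon counts in all 5 libraries, which allows up to 3 counts in each. Of the 10 interferon and chemokine genes listed, 9 had 0 exon counts in both 9 h libraries. The list summed to 14 exon counts with control oligo and 16 with randomer. IFIT1 had 0 with both oligos at 9 h and 10, 5 and 10 in mock, control oligo at 16 h and randomer at 16 h, and MX1, MX2, RSAD2 and IFI27 had 0 in all 5. Of 32 interferon-stimulated genes, 8 had a mean of 50 or more. None was at least 2-fold higher and 1 was lower, beside 9.4% and 7.77% of all exon genes. The lower 1 was HERC5, a ligase that attaches ISG15, with 202 and 58 counts (-1.31, interval -1.77 to -0.89). ISG15 had 291 and 190 (-0.14) and the median was -0.56 beside -0.06 for all genes. IRF1, below the minimum, had 6 and 65 exon counts and 15 and 112 intron counts (3.34), and 19 and 203 exon counts at 16 h. By introns 2 of the 3 genes that passed were at least 2-fold higher, IRF1 and ISG20 (35 and 250, 3.30), both with fewer than 50 control counts. The exons of ISG20, below the minimum, went the other way at 9 h (39 and 3, -3.02) and had 13 and 45 at 16 h. Among the sensors and effectors of double-stranded RNA none of 7 was at least 2-fold different by exons, with a median of -0.21. OAS3, the largest of these synthetases, had 274 and 177 (-0.15, interval -0.43 to 0.13). ADAR, which edits double-stranded RNA, had 1310 and 801 (-0.23), EIF2AK2, the gene of PKR, 235 and 146 (-0.21), and MAVS 871 and 517 (-0.27). OAS1 had 27 and 0. Introns of the list followed the general shift, with 5 of 8 at least 2-fold higher and a median of 1.32. Of the sensors without control counts at 9 h, ZBP1, a sensor of left-handed nucleic acid, had 40 exon and 160 intron counts with randomer and none with control oligo, and DHX58, a helicase related to RIG-I, had 24 and 63 and likewise none.

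**Figure D4:**
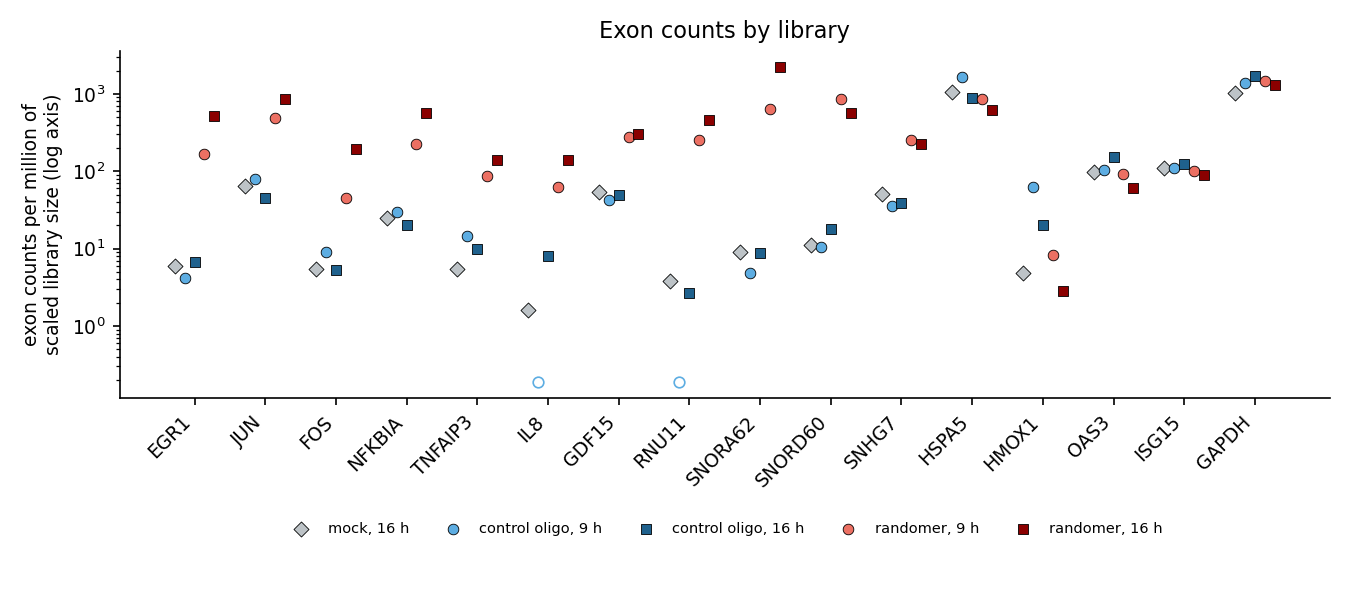
Exon counts scaled to library size, as CPM (vertical, log axis) of 16 genes in the 5 libraries, 1 point per library; open circles mark a count of 0 drawn at 0.5 counts. For EGR1, JUN, FOS, NFKBIA, TNFAIP3, IL8, GDF15 and the noncoding RNAs both randomer libraries lie above the 3 control libraries, while for OAS3, ISG15 and GAPDH the randomer and control libraries are not separated in that direction.

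Stress pathways were divided. By exons 8 of 21 p53 targets passed 2-fold upward and 1 downward, beside 9.4% and 7.77% of all exon genes, with a median of 0.80. GDF15, a secreted stress cytokine, had 112 and 535 counts (2.73, interval 2.44 to 3.04), with 100, 130 and 432 in mock, control oligo at 16 h and randomer at 16 h. GADD45B had 197 and 788 (2.48) and GADD45A 54 and 204 (2.39), both of the growth arrest family, and BTG2, an antiproliferative gene, 155 and 336 (1.59). MDM2, the ligase that degrades p53, had 1385 and 1750 (0.82) and CDKN1A, the p21 cell cycle inhibitor, 713 and 902 (0.82), both within 2-fold. TP53INP1 was the lower one (113 and 22, -1.86). Targets of ATF4, which carries out the integrated stress response, were split, with 5 of 22 higher and 3 lower and a median of 0.02. PPP1R15A, the phosphatase subunit that ends the response, had 240 and 670 (1.96), VEGFA 54 and 139 (1.83) and DDIT3 72 and 116 (1.16). The serine synthesis genes PSAT1 (629 and 221, -1.03) and PHGDH (419 and 149, -1.01) and VLDLR (118 and 40, -1.07) were lower, and PSPH, the last enzyme of the same synthesis, was higher (64 and 114, 1.31). ATF4 itself had 581 and 553 (0.41).

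Targets of NRF2, the transcription factor of the oxidative stress response that is constitutively active in A549, included 4 of the lower exon genes. By exons none of 21 was at least 2-fold higher and 4 were lower, beside 7.77% of all genes, with a median of -0.54 beside -0.06. HMOX1, heme oxygenase, had 165 and 16 counts (-2.85, interval -3.73 to -2.15), but only 9 in mock and 54 and 4 at 16 h, so the control library at 9 h was the highest of the 5 and randomer at 9 h was above mock, with a log2 ratio of 0.76. FTH1, the ferritin heavy chain, had 976 and 284 (-1.30), AKR1C2 634 and 171 (-1.41) and AKR1C3 819 and 271 (-1.12). By introns 4 of 21 were at least 2-fold higher and 3 lower, with a median of 0.14 beside 1.66 for all genes. AKR1B10 had 341 and 114 intron counts (-1.10) and AKR1C3 504 and 180, while TXNRD1, thioredoxin reductase, had 991 and 922 (0.37) and HMOX1 33 and 69 (1.53). Of 17 chaperones of the endoplasmic reticulum 2 were at least 2-fold lower by exons, beside 7.77% of all genes, and none was higher, with a median of -0.66 beside -0.06. The median of all genes is not matched for level: it was -0.23 at 201 to 1000 control counts and -0.36 at 1001 to 5000. The part of level in the medians of these lists was not tested. SDF2L1 had 191 and 42 (-1.69), PDIA4 649 and 228 (-1.03) and HSPA5, the chaperone BiP, 4344 and 1622 (-0.94, interval -1.03 to -0.86). In the other libraries HSPA5 had 1988, 2364 and 888, and its ratio of control oligo at 16 h over 9 h was -0.87. No heat shock gene of 11 was at least 2-fold different, with a median of -0.13. Cholesterol synthesis genes had 2 of 15 lower, FDFT1 (396 and 105, -1.43) and SQLE (329 and 103, -1.19), and none higher.

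Lists of growth and division genes were read against 7.77% of all exon genes at least 2-fold lower and 9.4% higher. These shares are not matched for level, and genes with more control counts had lower exon ratios. Of 27 mitotic genes 4 were at least 2-fold lower and 1 higher, with a median of -0.45 and 24 below 0. PLK1, a mitotic kinase, had 443 and 136 (-1.22) and AURKA 1105 and 380 (-1.06), and CCNB2 was the higher one (65 and 100, 1.10). Of 25 replication genes 3 were lower and none higher, with a median of -0.37, among them GINS2, part of the replicative helicase (128 and 18, -2.32). Of 17 replication-dependent histone genes 5 were lower and 1 higher, with a median of -0.63, and at 16 h the same genes had a median of 0.07. Histone genes are near-identical copies, so reads may have been split among them. Of 31 genes of oxidative phosphorylation 6 were lower and 1 higher, with a median of -0.33. The NADH dehydrogenase subunit gene NDUFB9 had 246 and 43 (-2.02). Of 63 cytosolic ribosomal protein genes 5 were higher and 5 lower, with a median of -0.23, and these have many processed pseudogenes that can share reads. Their introns had a median of 0.91 with 27 of 59 at least 2-fold higher. Introns of mitotic genes (7 of 21, median 0.63), of endoplasmic reticulum chaperones (2 of 14, 0.51) and of heat shock genes (1 of 9, 0.52) had lower counts of higher genes than the 70.8% of all introns. Among genes with 1001 or more control exon counts that share was 49.3%.

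**Figure D5:**
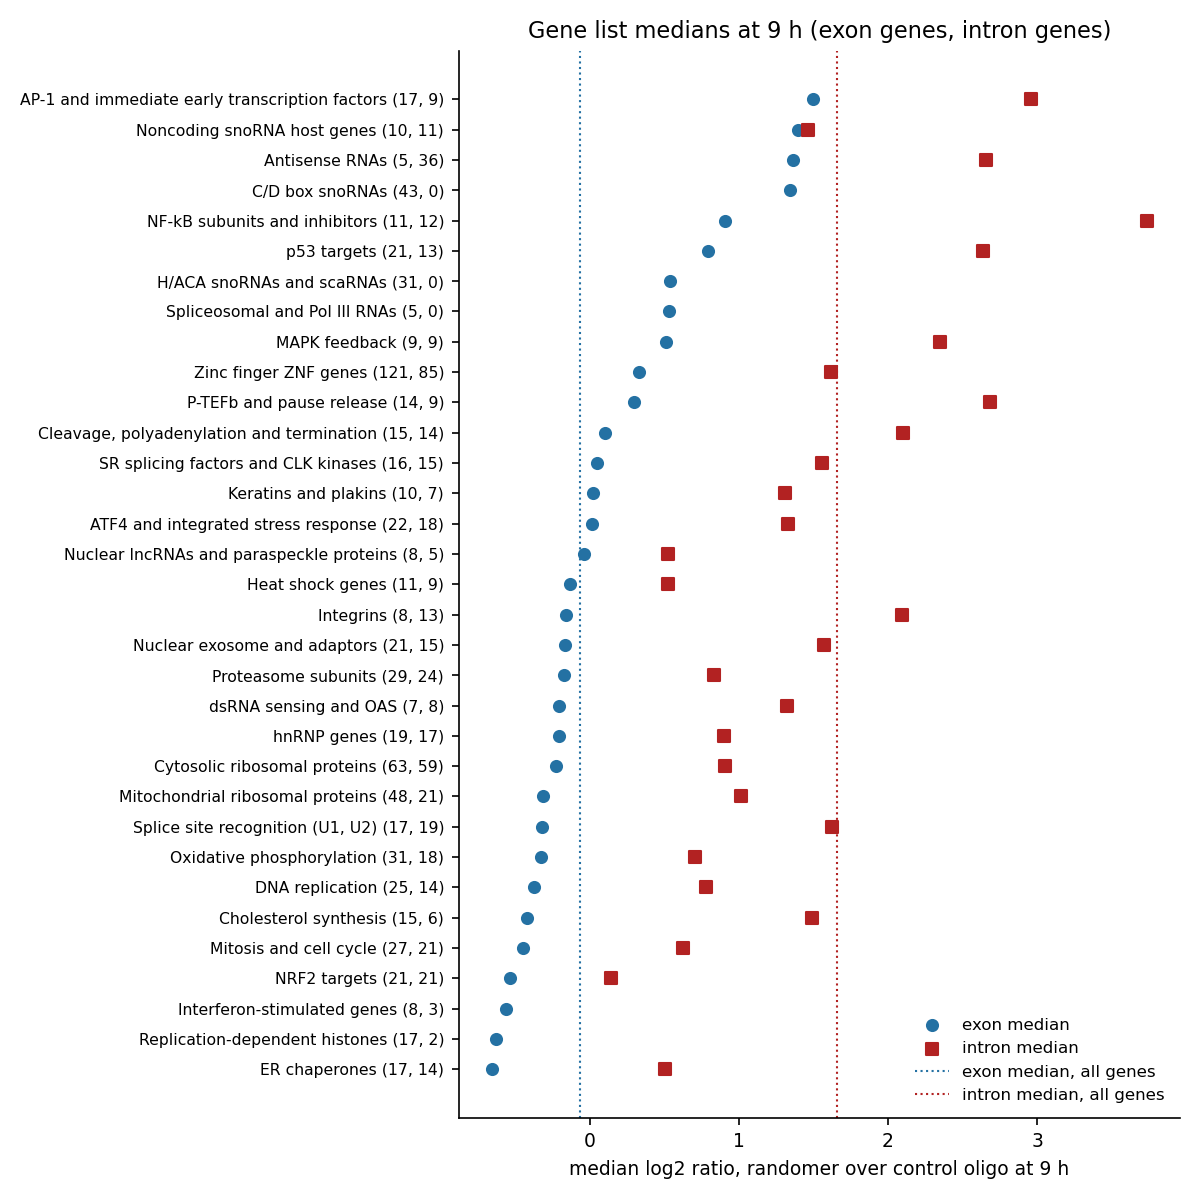
Median log2 ratio of randomer over control oligo at 9 h (horizontal) for gene lists (vertical, with the number of genes with a mean of 50 or more by exons and by introns), circles for exons and squares for introns, the latter with genes at 0 set to 3 counts and shown where at least 5 genes passed. Dotted lines mark all genes, -0.06 by exons and 1.66 by introns; immediate early genes (1.50 and 2.96) and NF-kB genes (0.91 and 3.74) lie to the right of both lines, and NRF2 targets (-0.54 and 0.14) to the left of both.

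The lists of RNA processing genes had few members past 2-fold by exons, where 9.4% of all exon genes were higher and 7.77% lower. PCF11, a cleavage factor that ends transcription, had 149 and 431 exon counts (2.01, interval 1.74 to 2.29) and 110 and 347 intron counts (2.13), with 98, 110 and 596 exon counts in mock, control oligo at 16 h and randomer at 16 h. RBBP6 of the same machinery had 196 and 346 (1.30), and no other of the 15 genes of that list was past 2-fold by exons. CLK1, a kinase of splicing factors, had 159 and 298 (1.38) and was the only 1 of 16 SR protein and CLK genes past 2-fold. KCNQ1OT1, a long nuclear antisense RNA within KCNQ1, had 130 and 370 (1.98, interval 1.70 to 2.29), with 86, 90 and 637 in the other libraries, beside the introns of KCNQ1 at 0 and 470. The strand setting of the counting is unknown here, so overlapping genes may share reads. None of 19 hnRNP genes and none of 17 genes of splice site recognition was at least 2-fold different. CCNT2, a cyclin of the elongation factor P-TEFb, had 73 and 145 (1.46). It was the only 1 of 14 genes of P-TEFb and pause release past 2-fold. Of 121 zinc finger genes named ZNF 23 were higher and 9 lower, beside 9.4% and 7.77% of all exon genes, with a median of 0.33. Of the 125 with at least 50 control counts, 12 were higher and 10 lower, with a median of 0.13.

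The exon genes at the low end were mostly not low at 16 h. Of the 15 lowest, 4 were at least 2-fold lower at 16 h, 1 was at least 2-fold higher and 7 were above 0. RBBP7, a histone-binding protein, had 102 counts with control oligo and 3 with randomer at 9 h (-4.39, interval -6.91 to -3.02), and 41, 109 and 74 in mock, control oligo at 16 h and randomer at 16 h (0.34 at 16 h). INADL (124 and 7), ME2 (121 and 8) and CYFIP2 (147 and 14) were lower at 9 h as well and had ratios of 0.68, 0.27 and 0.69 at 16 h. C12orf75 (116 and 9, then 77 and 11) and SLC9A2 (95 and 7, then 47 and 10) were lower at both times. The 15 lowest had means of 50.5 to 103.5 counts, where the spread between libraries is widest.

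All genes past 2-fold at 9 h were looked up in the separate 16 h libraries. Of 646 exon genes higher at 9 h, 338 (52.3%) were at least 2-fold higher at 16 h and 22 were lower, where 12.4% of all 6874 genes were higher at 16 h. Of 534 lower genes 141 (26.4%) were lower and 21 higher, where 11.5% of all were lower. Of 4204 genes with higher introns 3844 (91.4%) were also higher at 16 h, where 78.9% of the 5937 genes were, and 2 were lower. Over the 6385 genes that passed the minimum in the 16 h pair itself, 80.3% were higher and 0.861% lower by introns, and over 6526 by exons 12.1% and 11.3%. The intron-to-exon ratio there was higher for 79.2% and lower for 0.593% of 4217 genes. Of the 66 genes with lower introns 12 were lower at 16 h and 12 were higher.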

How the data were processed

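The deposited values are raw counts of exon and intron reads per gene symbol. The authors made them with TopHat2 and HTSeq on hg19, per the submitters' processing notes; the sources used here give no versions, annotation or strand setting. Libraries were prepared from total RNA after depletion of ribosomal RNA, per the labels' protocols, and sequenced on a HiSeq 2000. Rows whose symbol had turned into a date, 28 per table, were left out (0.153 to 0.289% of counts). Library sizes were exon totals with TMM factors from edgeR 4.0.16 in R 4.3.3, over genes with at least 10 counts in at least 2 libraries, and the same sizes scaled the intron counts. Log2 ratios used 0.5 added to each count. A gene was named past a 2-fold threshold at a mean of at least 50 counts over the pair. With 1 library a group no test was run. Genes named are the extremes of each ratio (15 by exons and 12 by introns each way) and members of gene lists; members and lists were chosen with earlier results of these data known, and other genes were named after their values were seen. A gene at 0 in the control library was given as a lower bound against 3 counts in that library. Intron lengths, overlaps and small RNA sequences came from GENCODE 29 on GRCh38, in which 92.6% of exon and 92.4% of intron symbols were matched. Depth was 1476223 to 2629053 exon and 603142 to 1947593 intron counts a library. Reads carry no molecular identifiers, so intervals and the floor cover counting error only. The calculation was tested on simulated data. Other scalings, control libraries, count minimums and added counts were tried.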

Additional observations from a re-analysis of the deposited data

Results flagged for a closer look

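Genes named in the report that were at least 2-fold different in opposite directions at 9 h and at 16 h are given here, each from 1 library a side. The difference between the times was not tested. TNIP2, an inhibitor of NF-kB signalling, had an exon log2 ratio of -3.06 at 9 h and 2.06 at 16 h. By introns VWDE had -2.69 and 1.24, and RPL41, a ribosomal protein gene, had -1.84 and 1.77. C1orf43 had -1.89 at 9 h and was at least 32.3-fold higher at 16 h, where the control library had 0 intron counts (a log2 ratio of 7.61 with 0.5 added to each count).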

How the results depend on the processing

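With 1 library a group no replicate could be left out, and intervals cover counting error only. No paired analysis was possible because no group has more than 1 library and no test was run. With the intron table's own TMM size 1633 genes were higher and 868 lower with a median of 0.23, by that scaling's construction, since it centres the intron ratios. Exon totals without TMM factors gave medians of 0.0096 by exons and 1.73 by introns. Control oligo at 16 h as the control gave an intron median of 1.58, an intron-to-exon median of 1.43 and a difference in intron share of 26.7 points, and mock gave 1.48, 1.29 and 26.1 points, with an exon median of -0.038 and 79 genes with a lower intron-to-exon ratio. That difference was 28.5 points without RN45S and 29.1 over genes in both tables. A mean of at least 20 counts gave 1336 higher and 942 lower by exons (median -0.020), 253 lower by introns (median 1.61), and 4281 and 286 by intron-to-exon ratio (1.42). A mean of at least 200 gave 118 and 89 (-0.18), 1319 and 5 (2.01), and 606 and 1 (1.72). No filter gave 4039 and 1881 (0.17), 10263 and 973 (2.03), and 6635 and 1166 (1.38). At least 50 counts with control oligo, chosen after seeing the data, gave 399 higher by exons (-0.14), 2501 higher and 140 lower by introns (1.19), 66 lower by intron-to-exon ratio (1.30) and a cholesterol synthesis intron median of -0.010. Adding 5 to each count gave medians of 1.60 and 1.46 for introns and intron-to-exon ratio. Genes without an overlapping gene gave 1229 higher and 29 lower introns (1.53). Single values changed sign with another control: with control oligo at 16 h the intron ratios of C1orf43 (5.51), TNIP2 (1.03) and TP53INP1 (-0.39), and with mock the exon ratio of HMOX1 (0.76); the cause was not tested.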
